A study of Mus musculus with 6 samples.

Results

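The collagen genes were all rows of the gene table whose symbol read Col, a type number from 1 to 28, the letter a and a chain number. The rule took 44 of 23367 gene entries and covered 27 collagen types. They were sorted by the kind of assembly their proteins form into 11 fibrillar collagens, 8 basement membrane collagens (6 chains of type IV plus the multiplexins Col15a1 and Col18a1) and 25 other collagens. The last class held 6 type VI chains, 9 fibril-associated (FACIT) collagens, 4 transmembrane collagens, 3 short chain collagens and 3 remaining genes.

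Polyadenylated RNA of gastrocnemius, a calf muscle, was sequenced from wild-type FVB mice at 5 stages in 6 libraries: embryonic day 18.5 (E18.5), postnatal day 2 (PN2), PN14 in 2 libraries, PN28 and adult at 22 weeks. The mice were untreated and carried no transgene. The E18.5 library pooled male and female mice and the PN2 library pooled males, whereas each later library came from 1 male, so age, sex at E18.5 and pooling cannot be told apart there. PN14 was the only stage with replicates, and each library had its own sequencing lane. Between 125402932 and 157868359 fragments per library were counted on genes, so that 3 counts corresponded to 0.0190 to 0.0239 CPM (counts scaled to library size).

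Skeletal muscle markers were high in all libraries, with the summed FPKM (fragments per kilobase of transcript, scaled to library size) of 6 genes at 21664 at E18.5, 24485 at PN2 and 60309 to 83085 later. The libraries also held RNA of other cell types, in amounts that moved with stage. The 6 bone markers summed to 54.7 and 47.7 FPKM at E18.5 and PN2 and to at most 1.18 FPKM later, and the 5 keratinocyte markers to 31.0 FPKM at E18.5, 3.56 at PN2 and 0.93 to 2.47 later. The 4 Schwann cell markers ranged from 45.2 FPKM at E18.5 to 851 in PN14 replicate 2, against 214 in PN14 replicate 1. Because these are bulk samples, fewer cells of a type and less RNA per cell cannot be told apart.

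Collagens are built from 3 chains that wind around each other along stretches in which glycine opens each triplet of residues. Fibrillar collagens such as types I and III make the fibers that carry tension in tendon, bone and the connective tissue around muscle fibers. Type IV collagen forms the sheet-like network of the basement membrane that wraps each muscle fiber and capillary, and type VI collagen forms beaded filaments next to it.

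The coding sequences differed in the length of the glycine repeat, and 3 stretches are printed here because they hold the unbroken repeat of a fibrillar collagen and the interruptions of type IV chains. Each is 72 coding bases (24 codons) of an mm9 GENCODE M1 transcript, 5′ to 3′, with the glycine codons (GGN) that open a triplet in capitals.
Col1a1: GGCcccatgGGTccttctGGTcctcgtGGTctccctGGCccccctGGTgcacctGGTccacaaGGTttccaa
Col4a1: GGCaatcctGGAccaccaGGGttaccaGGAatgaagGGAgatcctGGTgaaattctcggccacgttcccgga
Col4a3: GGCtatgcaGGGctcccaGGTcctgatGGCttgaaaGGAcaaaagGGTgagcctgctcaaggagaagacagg
The Col1a1 stretch starts the longest repeat of that gene (coding bases 502 to 573), and the Col4a1 (433 to 504) and Col4a3 (424 to 495) stretches each show the last 6 triplets of the longest repeat and the codons after it. The longest repeat held 338 triplets in Col1a1, 40 in Col4a1 and 39 in Col4a3. Over the classes, it held 216 to 344 triplets in the 11 fibrillar genes (median 338), 30 to 66 in the basement membrane genes (median 41) and 23 to 113 in the others (median 52), counting runs of at least 5 triplets.

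The type IV genes were also arranged in pairs. All 6 lay in head-to-head pairs, in mm9 coordinates Col4a1 (chromosome 8, 11198423 to 11312826, minus strand) with Col4a2 (11312805 to 11449287, plus strand), Col4a4 (chromosome 1, 82447298 to 82583424, minus strand) with Col4a3 (82583496 to 82718634, plus strand), and Col4a6 with Col4a5 on chromosome X. The annotated Col4a1 and Col4a2 genes shared 22 bases at their starts, and 71 bases with a GC content of 69.0% lay between the starts of Col4a4 and Col4a3. That stretch is shown because the genes on both sides of it rose together after PN2, chr1:82583425-82583495 on the plus strand.
Col4a4 to Col4a3: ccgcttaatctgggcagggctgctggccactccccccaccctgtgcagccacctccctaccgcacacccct

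Collagen genes took a larger part of the RNA around birth than in the adult. Their share of all counts on genes was 4.39% at E18.5, 3.50% at PN2, 1.11% and 1.45% at PN14, 1.06% at PN28 and 0.154% at 22 weeks. The Wilson 95% confidence intervals, which cover counting error only, were narrow (4.39% to 4.40% at E18.5 and 0.153% to 0.154% at 22 weeks). The summed FPKM of the 44 genes was 8248, 6576, 2102, 2686, 2021 and 285 in the same order. As a share of the FPKM of all genes this was 1.66% at E18.5 and 0.0521% at 22 weeks. The 4 libraries from PN14 on therefore lay below both perinatal libraries, and the adult lay below every other library. Of the 44 members, 33 had their highest FPKM at E18.5 and 7 at PN2, and 40 had their lowest FPKM at 22 weeks, 3 of them tied with another library at the 2 decimals given. The share of all genes with these peaks and lows was not counted. Scaled by library size alone, the median log2 fold change from E18.5 to adult was -1.08 over 16882 genes and -4.34 over the collagens.

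**Figure D1:**
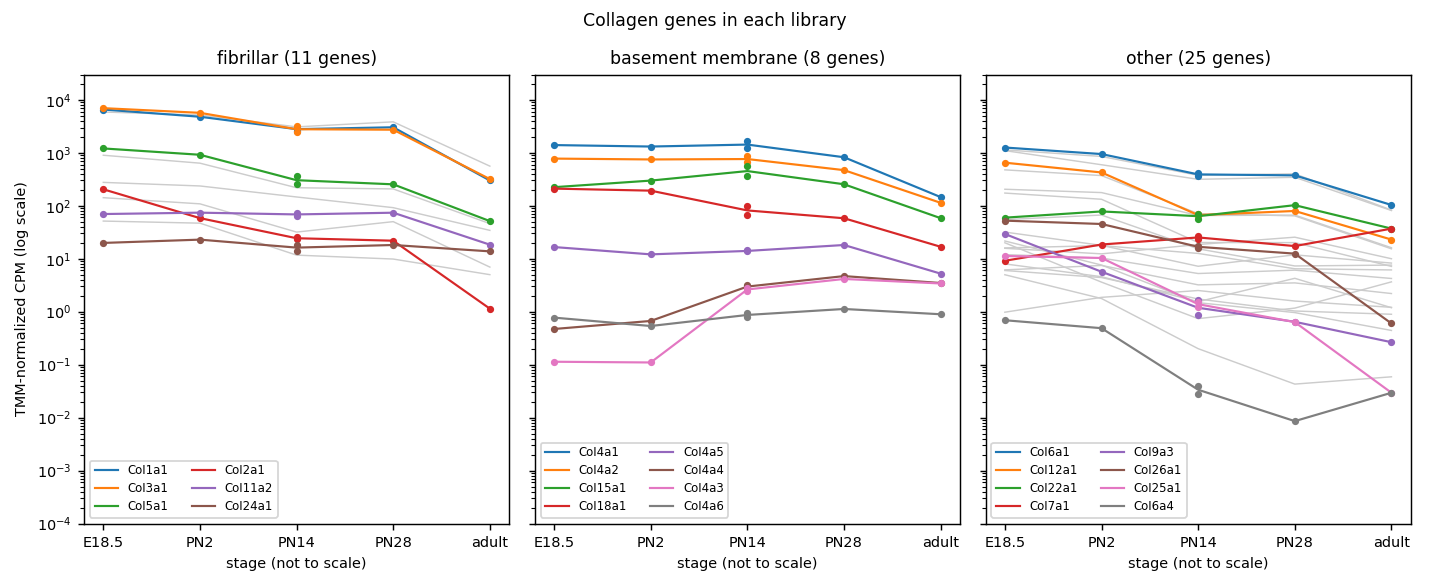
CPM of each collagen gene after scaling by the trimmed mean of M-values (TMM), on a log axis, by stage and class. Points are libraries, lines run through the geometric mean of the 2 PN14 libraries, and unlabelled members are gray; Col1a1 ran from 6558 at E18.5 to 299.6 at 22 weeks, whereas Col4a3 ran from 0.113 to 3.41.

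The class make-up changed less than the total. Fibrillar collagens held 74.5%, 74.3%, 73.5%, 68.6%, 77.7% and 64.4% of the summed collagen FPKM from E18.5 to adult, with both PN14 replicates listed before PN28. Basement membrane collagens held 7.40% and 9.11% at E18.5 and PN2, 15.1% and 19.3% at PN14, 10.2% at PN28 and 13.999% at 22 weeks. Their share was thus higher in each of the 4 later libraries than in either perinatal one, though the PN14 pair alone spanned over 4 points. The other collagens held 18.1% at E18.5, 11.4% and 12.2% at PN14 and 21.6% at 22 weeks. Col1a1, Col1a2 and Col3a1 together made up 58.0% to 73.6% of the collagen FPKM in every library.

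**Figure D2:**
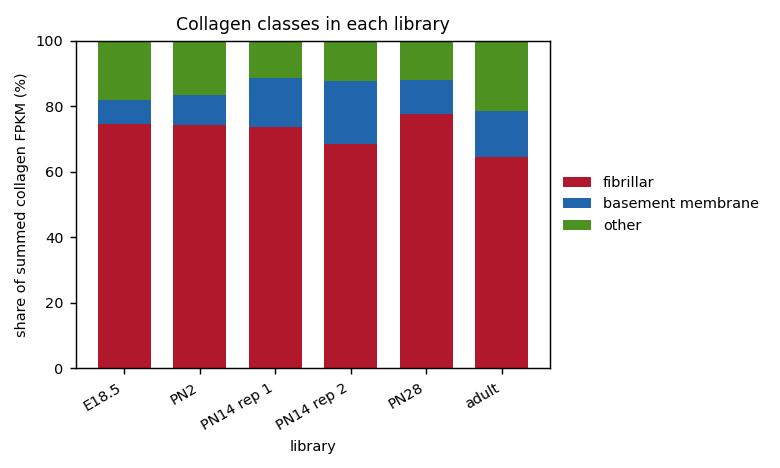
Share of the summed collagen FPKM (percent, vertical axis) held by the fibrillar, basement membrane and other collagens in each of the 6 libraries. The basement membrane share was lowest at E18.5 (7.40%) and highest in PN14 replicate 2 (19.3%).

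To ask when the change took place, each stage was compared with the next in a quasi-likelihood fit over all genes, and a gene was called when its Benjamini-Hochberg adjusted p was under 0.05 and its log2 fold change at least 1 in size. All 44 collagens passed the filter on low counts (16882 genes tested). Neighboring comparisons share libraries, and the spread in all of them came from the PN14 pair, with 1 residual degree of freedom. The fit drew the spread of each gene towards a trend over all genes, with 4.86 prior degrees of freedom. The standard errors are therefore not the spread of a single gene between the PN14 mice.

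Between PN2 and PN14, 24 collagens fell, 2 rose and 18 were not called. Over all genes tested, 23.0% were called, 11.2% as fallen and 11.8% as risen. The median log2 fold change was -1.22 over the collagens and -0.01 over all genes. By class, 5 of 11 fibrillar genes fell (median -1.02), 18 of 25 other collagens fell (median -1.43), and among the 8 basement membrane genes Col4a3 and Col4a4 rose and Col18a1 fell (median 0.42). No test between the classes was made. Scaling by library size alone, without TMM, moved the median of all genes to -0.66 and gave 854 genes risen and 4971 fallen in place of 1988 and 1896, and it put the basement membrane median at -0.22. With that scaling 32 collagens fell and the same number, 2, rose.

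**Figure D3:**
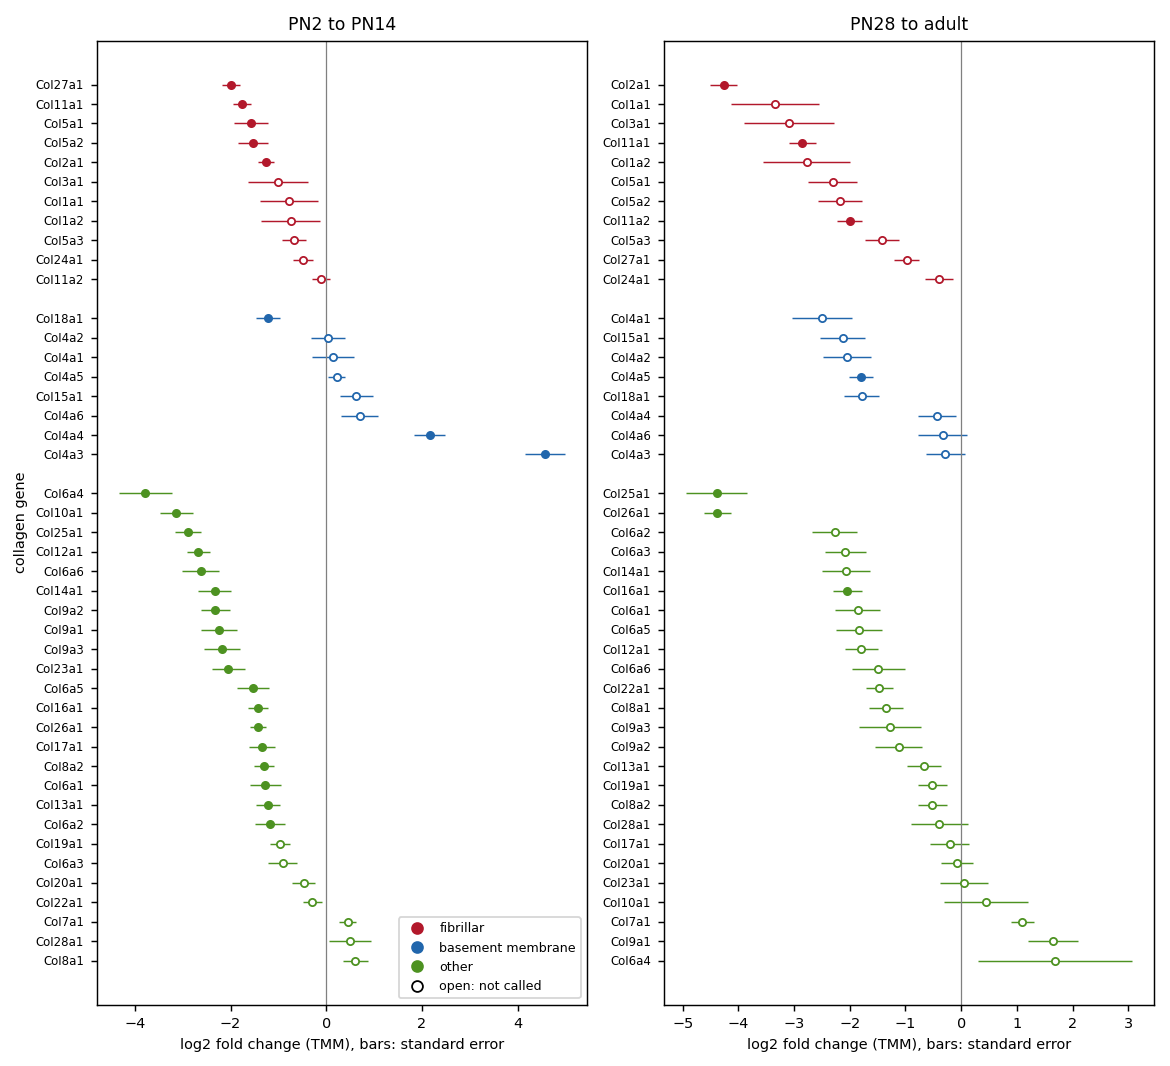
Log2 fold change (horizontal axis, TMM scaling) of each collagen gene from PN2 to PN14 and from PN28 to adult, with bars for 1 standard error, colored by class. Filled points were called; from PN2 to PN14 the filled points lie left of 0 except Col4a3 (4.57) and Col4a4 (2.16), and from PN28 to adult 39 of 44 points lie left of 0 but 7 are filled.

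The most abundant fibrillar genes encode the chains of type I (Col1a1, Col1a2) and type III collagen (Col3a1), the main fiber formers of muscle connective tissue. Col1a1 (chromosome 11, 94797538 to 94814356) was at 2046 FPKM at E18.5, 1494 at PN2, 541 and 563 at PN14, 510.5 at PN28 and 45.9 at 22 weeks. Col1a2 (chromosome 6, 4454814 to 4491543) had 1675, 1472, 542, 569, 590.0 and 78.2 FPKM. Col3a1 (chromosome 1, 45368383 to 45406551) had 1829, 1492, 373, 576, 387 and 41.1 FPKM. The perinatal libraries of all 3 genes lay far above the later ones, and the adult library lay below all others.

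On the TMM scale these differences from PN2 to PN14 were smaller and were not called, with log2 fold changes of -0.77 ± 0.608 (SE) for Col1a1, -0.74 ± 0.623 for Col1a2 and -1.02 ± 0.625 for Col3a1 (adjusted p = 0.361, 0.391 and 0.251). With library size alone they were -1.44, -1.40 and -1.65 and were called. Over the whole interval from E18.5 to adult all 3 fell, with log2 fold changes of -4.45 ± 0.830 for Col1a1, -3.39 ± 0.809 for Col1a2 and -4.45 ± 0.858 for Col3a1 (adjusted p = 0.00679, 0.0156 and 0.00758).

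Type I collagen is usually built from Col1a1 and Col1a2 chains together, and a ratio of both within a library does not depend on the scaling. Col1a1 over Col1a2, in FPKM, was 1.22 in the E18.5 and 1.01 in the PN2 library, 0.993 ± 0.00624 at PN14 (SD, n = 2), 0.865 at PN28 and 0.587 at 22 weeks. The ratio was lower at each stage than at the stage before, and both steps after PN14 exceeded the spread of the PN14 pair. PN28 and adult were 1 mouse each, so the spread between mice at those stages is not known. Col3a1 over Col1a2 was 1.09 at E18.5 and 0.526 at 22 weeks, but 0.687 and 1.01 in the PN14 replicates.

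The minor fibrillar chains fell more clearly by PN14. Type V collagen, which helps to start fibrils, fell in 2 of its 3 genes: Col5a1 had 209.5 FPKM at E18.5, 159 at PN2, 25.5 and 43.6 at PN14, 23.8 at PN28 and 4.37 at 22 weeks, and Col5a2 followed within the same range (198 to 4.99 FPKM). Their PN2 to PN14 log2 fold changes were -1.57 ± 0.353 and -1.53 ± 0.311 (adjusted p = 0.0237 and 0.0183). Col11a1 (-1.77 ± 0.190) and Col27a1 (-1.997 ± 0.185) also fell. Col5a3 (-0.68), Col24a1 (-0.49) and Col11a2 (-0.11) were not called. Col11a2 stayed at 10.4 to 19.3 FPKM through PN28, so that Col11a2 over Col11a1 was 0.639 at E18.5, 2.80 ± 0.0683 at PN14 (SD, n = 2) and 3.47 at 22 weeks.

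Col2a1, the fibrillar collagen of cartilage, was lower already at PN2. It had 60.2 FPKM at E18.5, 17.0 at PN2, 4.31 and 4.73 at PN14, 3.43 at PN28 and 0.17 at 22 weeks. It fell from PN2 to PN14 (-1.26 ± 0.172, adjusted p = 0.00730), from PN28 to adult (-4.26 ± 0.244, adjusted p = 0.0120) and from E18.5 to adult (-7.49 ± 0.278, adjusted p = 0.000705). Cartilage-associated FACIT and short chain collagens were likewise lower at PN2 than at E18.5. Col9a3, a chain of the type IX collagen that decorates cartilage fibrils, had 15.2 FPKM at E18.5, 2.95 at PN2, 0.26 and 0.58 at PN14, 0.18 at PN28 and 0.07 at 22 weeks. Col10a1, the collagen of hypertrophic growth plate cartilage, had 2.35, 0.83, 0.05, 0.07, 0.01 and 0.01 FPKM. Both fell from PN2 to PN14 (-2.18 ± 0.371 and -3.13 ± 0.350, adjusted p = 0.0118 and 0.00536).

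Markers of skeletal tissue moved beside these genes. All 6 bone markers fell from PN2 to PN14. The bone matrix gene Ibsp was at 33.7 FPKM at E18.5 and 35.6 at PN2 and had 0 or 1 count in each later library. Of the 8 cartilage markers 4 fell and 2 rose between PN2 and PN14, or 4 and 1 with library size alone. Over all genes 11.2% fell and 11.8% rose with TMM, and 4971 and 854 of 16882 with library size alone. The cartilage matrix genes Acan and Matn1 had 7.18 and 2.96 FPKM at E18.5 and at most 0.41 and 0.01 from PN14 on, whereas Comp and Chad, which tendon also expresses, reached 14.6 and 21.2 FPKM at 22 weeks. The cartilage list therefore summed to 32.2 FPKM at E18.5, 13.7 at PN2, 26.8 and 13.6 at PN14, 28.9 at PN28 and 36.3 at 22 weeks. The part of cartilage and bone RNA in the perinatal levels of Col2a1, the type IX genes, Col10a1 and the type I genes was not tested.

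Basement membrane collagens did not share a single pattern. Col4a1 and Col4a2, which form the common type IV molecule of vessels and muscle fibers, were abundant through PN14. Col4a1 had 309 FPKM at E18.5, 289 at PN2, 157 and 254 at PN14, 98.2 at PN28 and 15.8 at 22 weeks, and Col4a2 had 177, 170.0, 88.7, 135, 57.7 and 12.7 FPKM. In FPKM both PN14 replicates of both genes lay below PN2, the first further than the second. On the TMM scale Col4a1 had 1311 CPM at PN2 and 1225 and 1664 at PN14, and Col4a2 had 748, 674 and 860. Neither gene was called over this step. Their PN2 to PN14 log2 fold changes were 0.14 ± 0.443 and 0.04 ± 0.359 with TMM, and -0.49 and -0.60 with library size alone. From E18.5 to adult both fell (-3.26 ± 0.555 and -2.77 ± 0.443 on the log2 scale, adjusted p = 0.00508 and 0.00420). Col4a1 over Col4a2 in FPKM was 1.70 to 1.88 in the first 5 libraries and 1.25 at 22 weeks.

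Col4a3 and Col4a4, chains of the type IV network best known from the kidney filter, moved in the opposite direction at low levels. Col4a3 had 26 counts at E18.5, 25 at PN2, 299 and 369 at PN14, 483 at PN28 and 347 at 22 weeks, or 0.02 FPKM in both perinatal libraries and 0.28 to 0.38 later. Col4a4 had 108, 152, 296, 479, 547 and 354 counts, or 0.09 to 0.47 FPKM. For both genes every later library lay above both perinatal ones. Between PN2 and PN14, Col4a3 rose by 4.57 ± 0.418 and Col4a4 by 2.16 ± 0.333 on the log2 scale (adjusted p = 0.00389 and 0.00941). As counts, Col4a3 over Col4a1 was 8.1e-05 at E18.5 and 0.0234 at 22 weeks, so the chain remained a small part of type IV RNA at each stage. Col4a5, which joins them in that network, had 1.81 to 3.75 FPKM until PN28 and 0.58 at 22 weeks. It fell from PN28 to adult (-1.80 ± 0.220, adjusted p = 0.0499). Col4a6 had 84 to 177 counts in all libraries and was called in no comparison.

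The multiplexins, found where basement membranes meet the surrounding matrix, parted after PN2. Col15a1 (chromosome 4, 47221033 to 47326039) was at 61.7 FPKM at E18.5, 82.0 at PN2, 58.8 and 105 at PN14, 37.8 at PN28 and 7.87 at 22 weeks. Col18a1 (chromosome 10, 76514923 to 76629293) had 59.6, 54.6, 11.3, 19.3, 8.85 and 2.30 FPKM. Col18a1 fell from PN2 to PN14 (-1.22 ± 0.259, adjusted p = 0.0203), whereas Col15a1 was not called (0.63 ± 0.345, adjusted p = 0.207). Within libraries Col15a1 over Col18a1 was 1.03 in the E18.5 and 1.502 in the PN2 library, 5.33 ± 0.168 at PN14 (SD, n = 2), 4.27 at PN28 and 3.42 at 22 weeks.

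Endothelial cells are among the cells that make type IV collagen, and their 6 markers summed to 185 and 188 FPKM at E18.5 and PN2, 175 and 261 at PN14, 128 at PN28 and 69.0 at 22 weeks. On the TMM scale 2 of the 6, Tie1 and Emcn, rose from PN2 to PN14, where 11.8% of all genes rose. Neither rise was called with library size alone. None of the 6 was called from PN28 to adult with TMM, where 0.521% of all genes were. The median log2 fold change of the 6 in that step was -0.71. PN14 replicate 2 had more of the endothelial and Schwann cell markers and also more Col4a1, Col4a2 and Col15a1 than replicate 1. The excess was not limited to this class. Summed FPKM in replicates 2 and 1 was 518 and 318 for the basement membrane, 1842 and 1546 for the fibrillar and 327 and 239 for the other collagens. The part of these cells in the basement membrane collagen levels was not tested.

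Among the other collagens, type VI was the most abundant. Col6a1 (chromosome 10, 76171537 to 76188913) was at 464 FPKM at E18.5, 349 at PN2, 77.7 and 107 at PN14, 74.8 at PN28 and 18.8 at 22 weeks. Col6a2 had 447, 336, 80.3, 109, 85.3 and 16.0 FPKM, and Col6a3, the long chain of the same molecule, had 173, 93.2, 28.1, 36.4, 29.7 and 6.29. Each of the 3 genes was high in the perinatal libraries, lower by PN14 and lowest in the adult. Col6a1 and Col6a2 fell from PN2 to PN14 (-1.27 ± 0.327 and -1.18 ± 0.319, adjusted p = 0.0339 and 0.0387), and Col6a3 was not called (-0.91 ± 0.300, adjusted p = 0.0649). Col6a1 over Col6a2 ranged from 0.876 to 1.17 in FPKM. Chains that can take the place of Col6a3 were rarer: Col6a6 had 35.7 FPKM at E18.5 and 0.72 at 22 weeks, Col6a5 had 1.25 and 0.09, and Col6a4 had 158 counts at E18.5, 111 at PN2, 3 and 6 at PN14, 1 at PN28 and 3 at 22 weeks. Col6a4 fell from PN2 to PN14 (-3.78 ± 0.553, adjusted p = 0.00844).

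The FACIT collagens, which sit on the surface of fibrils, fell in 6 of 9 genes between PN2 and PN14. Col12a1 and Col14a1, abundant in tendon and fascia, had 81.1 and 108 FPKM at E18.5 and 1.41 and 1.71 at 22 weeks, and both fell from PN2 to PN14 (-2.67 ± 0.239 and -2.34 ± 0.343). Col22a1, a collagen of the muscle-tendon junction, was instead at 14.2 FPKM at E18.5, 18.6 at PN2, 9.76 and 9.41 at PN14, 13.2 at PN28 and 4.34 at 22 weeks, and was called in no comparison. Col22a1 over Col12a1 was 0.175 in FPKM at E18.5, 1.85 ± 0.424 at PN14 (SD, n = 2) and 3.08 at 22 weeks. The 5 tendon markers summed to 281 and 324 FPKM at E18.5 and PN2, 117 in both PN14 libraries, 149.5 at PN28 and 73.2 at 22 weeks. From PN2 to PN14 1 of the 5 fell with TMM, where 11.2% of all genes fell. With library size alone 4 of the 5 fell, where 4971 of 16882 genes fell. The part of tendon RNA in the FACIT levels was not tested.

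All 4 transmembrane collagens fell from PN2 to PN14, with log2 fold changes from -2.89 (Col25a1) to -1.22 (Col13a1). Col25a1, a muscle collagen needed for motor axons to enter muscle, had 2578 counts at E18.5, 2349 at PN2, 132 and 232 at PN14, 74 at PN28 and 3 at 22 weeks. After scaling, E18.5 exceeded the adult 382 times, with a 95% counting interval of 130.4 to 1852. Col26a1 (named Emid2 in the annotation) had 28.6 FPKM at E18.5, 24.7 at PN2, 5.12 and 6.58 at PN14, 3.68 at PN28 and 0.16 at 22 weeks. It fell from PN2 to PN14 (-1.43 ± 0.163, adjusted p = 0.00550) and again from PN28 to adult (-4.38 ± 0.240, adjusted p = 0.0120).

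Col7a1, which forms the anchoring fibrils under epithelia, went the other way. It had 1.45 FPKM at E18.5, 2.94 at PN2, 2.46 and 2.60 at PN14, 1.48 at PN28 and 2.88 at 22 weeks, with no order by age. From E18.5 to adult it rose by 2.02 ± 0.212 on the TMM log2 scale (adjusted p = 0.00160). With library size alone the value was 0.99 and missed the call. The keratinocyte markers Krt5 and Krt14 had 2.05 and 1.48 FPKM at E18.5 and 0 counts in the adult.

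In the steps before PN2 and from PN14 to PN28 no member passed the test. No collagen was called from E18.5 to PN2, where 0.0296% of all genes were. In the edgeR quasi-likelihood test 8 members had an unadjusted p under 0.05, as had 1121 of all 16882 genes. DESeq2 called 3, all fallen, and edgeR's exact test called 5 (4 fallen and 1 risen). Shares of all genes are not given for DESeq2 and the exact test, here and from PN14 to PN28. Counted without a test, 5 of 40 members were at least 2-fold lower at PN2 and 1 was higher, against 1.51% and 1.93% of genes. The lower ones, with fitted log2 fold changes, were Col2a1 (-1.81), Col9a1 (-2.47), Col9a3 (-2.37), Col9a2 (-1.51) and Col10a1 (-1.49), and the higher one was Col7a1 (1.02). No collagen was called from PN14 to PN28 (0.0178% of genes). In the quasi-likelihood test 11 members had an unadjusted p under 0.05, as had 1420 of all 16882 genes. DESeq2 called none and the exact test called 1, which rose. In that step 2 of 42 members were at least 2-fold lower and 1 was higher, against 1.59% and 1.75% of genes. Without PN14 replicate 1 the count of 3 became 8, and without replicate 2 it became 1. Shares of all genes are not given with a replicate left out.

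The step from PN28 to adult was large in size but passed the test in few members. Here 7 collagens fell and none rose, where 0.521% of genes were called and 0.361% fell: Col2a1, Col11a1, Col11a2, Col4a5, Col16a1, Col25a1 and Col26a1. Without a test, 25 of 39 members were at least 2-fold lower in the adult and 2 were higher, against 7.29% and 2.9% of genes. The median log2 fold change was -1.64 over the collagens, -2.31 over the fibrillar, -1.79 over the basement membrane and -1.28 over the other collagens. Col1a1 (-3.34 ± 0.788), Col3a1 (-3.10 ± 0.806) and Col1a2 (-2.78 ± 0.788) were among those not called (adjusted p = 0.116, 0.139 and 0.163). The count depended on the test. In the quasi-likelihood test 30 members had an unadjusted p under 0.05, as had 3091 of all 16882 genes. DESeq2 and edgeR's exact test each called 28 (26 fallen and 2 risen). The quasi-likelihood test called 26 with library size alone, all fallen, where 727 of all genes fell and 141 rose. It called 24 with no filter (23 fallen and 1 risen) and 2 with a filter at a mean of 1 CPM. Shares of all genes are not given for DESeq2, the exact test and the other filters. Each stage of this pair was 1 mouse.

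The summed markers of fibroblasts, the main collagen-producing cells, lay closer together in the same step. The 6 markers summed to 751 and 749 FPKM at E18.5 and PN2, 339 and 442 at PN14, 449 at PN28 and 387 at 22 weeks. With TMM none of the 6 was called from PN2 to PN14 or from PN28 to adult, where 23.0% and 0.521% of all genes were. Their median log2 fold changes were -0.77 and -0.87. With library size alone 4 of the 6 fell from PN2 to PN14 and 3 of the 6 from PN28 to adult, against 4971 and 727 of 16882 genes. Most of this sum was Dcn, a small proteoglycan that binds collagen fibrils, with 327 FPKM at PN28 and 329 at 22 weeks. The 5 remaining markers were lower in the adult than at PN28, with log2 fold changes from -1.73 (Fbn1) to -0.45 (Pdgfra). From E18.5 to adult Fap (-3.01), Fbn1 (-2.63), Pdgfra (-1.97) and Lum (-1.63) fell. The part of fibroblast number in the collagen levels was not tested.

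**Figure D4:**
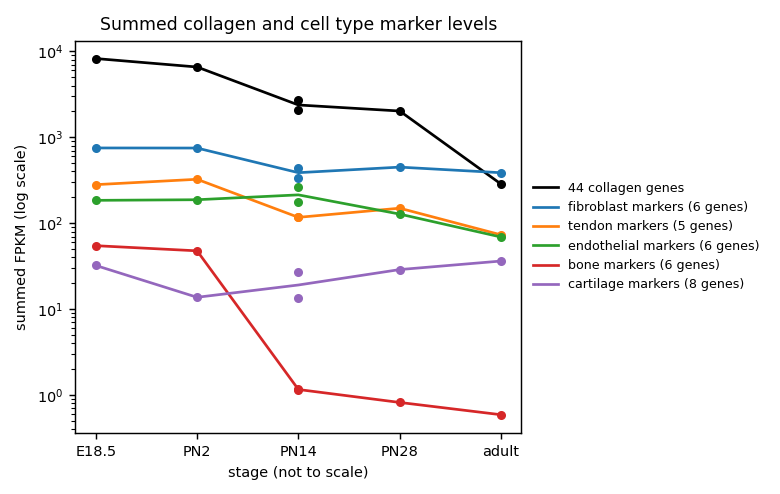
Summed FPKM (log axis) of the 44 collagen genes and of 5 cell type marker lists by stage, with a point for each library and lines through the geometric mean of the PN14 pair. The collagen sum was 2021 at PN28 and 285 at 22 weeks, whereas the fibroblast markers summed to 449 and 387.

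Over the whole interval from E18.5 to adult, 36 collagens fell and 3 rose, in a comparison in which 44.9% of genes were called, 23.6% as fallen and 21.4% as risen. The median was -3.31 over the collagens and -0.05 over all genes. The 10 fibrillar genes that fell were all but Col24a1. Of the basement membrane genes Col4a1, Col4a2, Col4a5, Col15a1 and Col18a1 fell and Col4a3 and Col4a4 rose. Of the others 21 fell and Col7a1 rose, while Col8a1, Col22a1 and Col28a1 were not called. The 21 were the 6 type VI genes, the 4 transmembrane genes Col13a1, Col17a1, Col23a1 and Col25a1, the short chain genes Col8a2 and Col10a1, Col26a1, and all FACIT genes but Col22a1. The largest falls on the fitted log2 scale were those of Col25a1 (-8.54 ± 0.518), Col2a1 (-7.49 ± 0.278) and Col9a3 (-6.78 ± 0.587). The 5 genes called in no comparison were Col4a6, Col8a1, Col22a1, Col24a1 and Col28a1.

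Taking E18.5 and PN2 as one group and the 4 later libraries as the other let the spread between stages count as error. In that fit 22 collagens fell and 2 rose, where 31.1% of 16373 genes were called, 15.6% as fallen and 15.5% as risen. Without PN14 replicate 1 the count of 24 became 15, and without replicate 2 it became 23. Shares of all genes with a replicate left out are not given. The genes that rose were Col4a3 (4.83 ± 0.356, adjusted p = 0.00185) and Col4a4 (2.63 ± 0.328, adjusted p = 0.00311). On the TMM scale, all 4 later libraries lay below both perinatal ones for 31 members, against 34.8% of all genes, and above both for 3 members, against 32.9% of genes. The 31 were 10 of 11 fibrillar, 20 of 25 other and 1 of 8 basement membrane genes, and the 3 were Col4a3, Col4a4 and Col4a6. The place of Col4a6 depended on the scaling. It had 0.772 CPM at E18.5 and 0.796 in PN14 replicate 1 with TMM, but in FPKM it was highest at E18.5 (0.17, against 0.10 to 0.14 later).

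Genes that process collagen were examined by step. With TMM, 11.2% of all genes fell and 11.8% rose from PN2 to PN14, and 23.6% fell and 21.4% rose from E18.5 to adult. With library size alone 4971 of 16882 genes fell and 854 rose over the first interval, and 7700 fell and 1347 rose over the second. Folding and modification enzymes hydroxylate and chaperone the chains in the endoplasmic reticulum, and 6 of 17 fell from PN2 to PN14, with 13 of 17 having fallen from E18.5 to adult (11 and 17 with library size alone). The largest fall was that of the prolyl hydroxylase subunit P4ha3, with 15.2 FPKM at E18.5, 11.5 at PN2, 0.46 and 0.94 at PN14, 0.36 at PN28 and 0.05 at 22 weeks (-3.41 ± 0.330 from PN2 to PN14). Of the 8 genes that trim the propeptides of fibrillar procollagens, 2 fell from PN2 to PN14, and from E18.5 to adult 6 fell and 1 rose. Adamts14, a protease that removes the amino-terminal propeptide, fell most (12.2 to 0.29 FPKM from E18.5 to adult), and Pcolce2, an enhancer of the carboxy-terminal protease, was the one that rose (1.46 ± 0.240). With library size alone 5 of the 8 fell over the first interval and 7 over the second, and the rise of Pcolce2 was not called.

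Of the 5 lysyl oxidases, which crosslink collagen and elastin, Lox alone fell from PN2 to PN14 (-1.61 ± 0.168) and 4 had fallen from E18.5 to adult, against 4 over each interval with library size alone. Of all genes 11.2% and 23.6% fell over these intervals with TMM, and 4971 and 7700 of 16882 with library size alone. Lox had 52.9 FPKM at E18.5, 44.7 at PN2, 8.30 and 10.3 at PN14, 7.63 at PN28 and 2.79 at 22 weeks. Of 7 genes for collagen breakdown and uptake 5 fell over each of these intervals (7 and 6 with library size alone), led by the collagenase Mmp13 (5.84 FPKM at E18.5, 4.62 at PN2 and at most 0.18 later), a gene that growth plate cartilage and bone also express. Protease inhibitors differed in direction: Timp4 rose from PN2 to PN14 (3.18 ± 0.729), and from E18.5 to adult Timp4 and Timp3 rose and Timp1 fell (-3.48 ± 0.468). Timp3 had 31.9 FPKM at E18.5 and 35.7 at 22 weeks, and its rise was not called with library size alone. Timp4 had 7.42 and 2.83 FPKM in the PN14 replicates, against 0.93 at PN2 and 10.5 at 22 weeks. Of 7 collagen receptors, Itga2 (-1.48 ± 0.345) and Itga10 (-1.08 ± 0.230) fell from PN2 to PN14, and the same 2 genes fell from E18.5 to adult, where 2 of 7 is close to the 23.6% of all genes. With library size alone 4 receptors fell over the first interval and 6 over the second.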

How the data were processed

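PolyA RNA was aligned by the authors with TopHat2 2.0.5 to mm9 and quantified with RSEM on RefSeq gene models (RSEM version not given in the sources used here). The deposited expected counts per gene were rounded to whole numbers for testing. The deposited FPKM values (2 decimals), per length and library size, were used for levels and ratios. Genes were fitted with edgeR 4.0.16 (TMM, filterByExpr, glmQLFit, glmQLFTest; R 4.3.3), with all 6 libraries in 1 fit of 5 stages, or with 2 groups (E18.5 and PN2 against the rest). P-values were adjusted by Benjamini-Hochberg over all genes tested, and SE was the log2 fold change divided by the square root of F. Differences without a test used TMM CPM with a pseudocount of 0.1 CPM, for genes reaching 1 CPM in either stage of the pair. The fit was also run on simulated counts with known changes, drawn with the same spread for all genes and without a shift in composition between stages. That run does not measure the error rate of the calls given here. DESeq2 1.42.0 was an alternative.

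The collagen genes, classes and lists were chosen with earlier results of these data known. Values in every library are given for the 3 highest members by FPKM of each class, for members called against the direction of most of their class, and for the 3 largest rises and falls called in each comparison, 19 members in all. Other members were described to complete their families, and their values had been seen. Pathway genes named are the largest called rise and fall per list, with others added after their values were seen. Marker lists covered skeletal muscle, bone, cartilage, tendon, fibroblast, endothelial, Schwann cell and keratinocyte genes. Mia3, of 18 folding genes listed, was not analysed here. Sequences and positions came from mm9 and GENCODE M1.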

Additional observations from a re-analysis of the deposited data

How the results depend on the processing

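The counts of collagen genes called moved by over 1.5 times with the setting in 3 steps. From E18.5 to PN2 the count of 0 became 3 with library size alone, 3 with DESeq2's Wald test, 5 with edgeR's exact test and 3 with no filter. From PN14 to PN28 it became 1 with library size and 1 with the exact test. From PN28 to adult the count of 7 became 26, 28, 28 and 24 under those 4 settings and 2 with a mean of at least 1 CPM. The counts from PN2 to PN14 (26 to 34) and from E18.5 to adult (38 to 41) stayed within 1.5 times the reported ones under these settings and under DESeq2 size factors. Leaving out each PN14 library gave 15 to 23 calls between perinatal and later libraries. It gave 24 to 26 members at least 2-fold apart from PN2 to PN14, and 1 to 8 from PN14 to PN28. With both PN14 libraries, 1962 of 13304 genes were at least 2-fold higher and 1615 lower at PN14 than at PN2. From PN14 to PN28, 227 of 12935 genes were higher and 206 lower. Shares of all genes with a library left out are not given. With a PN14 library left out, the fit of 5 stages has no residual degrees of freedom and was not run. With library size alone, pathway genes called from PN2 to PN14 were 11 for folding, 5 for propeptide removal, 4 for crosslinking, 3 for protease inhibitors and 4 for receptors. Of all 16882 genes, 4971 fell and 854 rose under that setting. The sign turned with library size for Col4a1 (-0.49), Col4a2 (-0.60) and Col7a1 (-0.21) from PN2 to PN14, Col1a1 (-0.11), Col6a2 (-0.15) and Col6a3 (-0.11) from PN14 to PN28, and Col15a1 (-0.45) between perinatal and later libraries, none of them called. The cause of the other differences was not tested. No paired analysis was possible because the stages came from different mice.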
